A study of Homo sapiens with 9 samples.

Results

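Divergent transcripts (DTs) are long non-coding RNAs (lncRNAs) named after the protein-coding gene beside them, from whose promoter region they run in the opposite direction. The DT lncRNAs described here are all genes of the count table whose GENCODE symbol ends in -DT, 579 of 57163 genes, all annotated as lncRNAs. The partner of a DT is the gene of the same name without the ending. Of the 579 DTs, 577 had such a partner, which was protein-coding in every case and gave 576 distinct partners, because the symbol TNFRSF10A-DT is held by 2 genes. KLHDC7B-DT and UHRF1BP1L-DT had no partner analysed here.

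Many mammalian promoters are bidirectional. RNA polymerase II starts in both directions from a shared nucleosome-free region, and the upstream antisense product is usually cut short by early cleavage and polyadenylation and degraded by the nuclear exosome. Where such a transcript is stable enough to be annotated as a lncRNA, it can receive a -DT name. A DT that starts close to its partner shares the DNA between the starts with it, and a TF bound there has access to both.

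The DNA of 6 pairs is shown first because the results below turn on these pairs. Each sequence has 251 bases of GRCh37 and runs from 250 bases upstream of the annotated partner start to the first base of the partner, 5′ to 3′ on the partner's strand. Capitals mark the stretch between the start of the DT, which runs to the left on the other strand, and the start of the partner.
NUDT19-DT and NUDT19, chr19:33182617-33182867, plus strand: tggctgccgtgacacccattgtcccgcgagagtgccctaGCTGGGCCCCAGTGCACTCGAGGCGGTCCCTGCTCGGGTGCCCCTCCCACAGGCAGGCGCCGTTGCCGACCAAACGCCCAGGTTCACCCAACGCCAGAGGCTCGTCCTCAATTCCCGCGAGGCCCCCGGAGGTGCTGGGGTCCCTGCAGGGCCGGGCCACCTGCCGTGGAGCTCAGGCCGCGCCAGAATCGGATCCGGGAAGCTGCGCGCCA
SLC20A1-DT and SLC20A1, chr2:113403184-113403434, plus strand: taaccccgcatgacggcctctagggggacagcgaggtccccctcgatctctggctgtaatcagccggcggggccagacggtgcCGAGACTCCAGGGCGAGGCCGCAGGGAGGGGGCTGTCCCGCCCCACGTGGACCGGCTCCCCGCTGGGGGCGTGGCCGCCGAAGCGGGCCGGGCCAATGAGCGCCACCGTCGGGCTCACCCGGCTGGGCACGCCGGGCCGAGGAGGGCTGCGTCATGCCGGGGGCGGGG
PRR15-DT and PRR15, chr7:29603177-29603427, plus strand: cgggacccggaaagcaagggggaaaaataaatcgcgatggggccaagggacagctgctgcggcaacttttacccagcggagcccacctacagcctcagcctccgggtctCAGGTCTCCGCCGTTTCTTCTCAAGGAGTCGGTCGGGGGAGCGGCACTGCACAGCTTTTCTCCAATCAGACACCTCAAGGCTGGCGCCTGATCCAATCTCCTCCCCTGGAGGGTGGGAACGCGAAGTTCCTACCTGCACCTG
CD2BP2-DT and CD2BP2, chr16:30366682-30366932, minus strand: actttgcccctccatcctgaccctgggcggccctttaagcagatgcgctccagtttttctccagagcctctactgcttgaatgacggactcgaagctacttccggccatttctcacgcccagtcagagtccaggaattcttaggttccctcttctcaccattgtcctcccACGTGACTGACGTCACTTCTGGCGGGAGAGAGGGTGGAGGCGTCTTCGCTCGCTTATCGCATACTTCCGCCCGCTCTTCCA
CABP7-DT and CABP7, chr22:30115823-30116073, plus strand: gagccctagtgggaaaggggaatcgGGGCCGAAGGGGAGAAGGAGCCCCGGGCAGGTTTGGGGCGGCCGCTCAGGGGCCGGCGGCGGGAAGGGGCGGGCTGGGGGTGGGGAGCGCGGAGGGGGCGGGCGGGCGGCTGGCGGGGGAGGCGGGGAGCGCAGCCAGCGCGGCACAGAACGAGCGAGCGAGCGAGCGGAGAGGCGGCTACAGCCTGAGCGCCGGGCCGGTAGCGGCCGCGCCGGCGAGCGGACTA
BAIAP2-DT and BAIAP2, chr17:79008672-79008922, plus strand: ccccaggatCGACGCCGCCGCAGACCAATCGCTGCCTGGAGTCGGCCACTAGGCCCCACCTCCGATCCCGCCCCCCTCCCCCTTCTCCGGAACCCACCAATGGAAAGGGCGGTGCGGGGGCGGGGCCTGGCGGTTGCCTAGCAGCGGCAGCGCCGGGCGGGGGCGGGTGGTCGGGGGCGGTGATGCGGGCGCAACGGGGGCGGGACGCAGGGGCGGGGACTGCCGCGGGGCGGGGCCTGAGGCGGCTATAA
The shared stretch covered 212 bases for NUDT19, 168 for SLC20A1, 142 for PRR15, 81 for CD2BP2, 226 for CABP7 and 242 for BAIAP2, counted with both starts.

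The study asked whether TFs that prefer the promoters of evolutionarily conserved lncRNAs (CLB_TFs) change lncRNA expression when overexpressed. The cells were 293T, a line made by transforming human embryonic kidney cells, and RNA was taken 48 h after transient transfection of a lentiviral EGFP vector that carried 1 open reading frame behind the EF1A promoter. NRF1, E2F4, EGR1 and ZBTB7A were the CLB_TFs, HOXA11, RORA, TFCP2 and NKX2-8 served as control TFs, and the control library had no TF insert (a blank in the labels, an empty plasmid in the methods). With 1 library for each of the 9 conditions, no difference from the control library has a replicate check, and each describes 2 libraries.

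Totals were 14177970 to 18915400 counts per library. Each of the 8 TFs was highest in the library of its own insert, 28.4-fold to 1182-fold above the control library. The control library stood apart for TFCP2, with 9812 counts against 653 to 703 in the 7 TF libraries without this insert, or 12.6 times their mean level. The NRF1 and EGR1 libraries detected 26166 and 26296 genes, and the 7 other libraries 23344 to 24593. In CPM, the count scaled to the size of its library, markers of the 293 line summed to 1263 to 1559, whereas leukocyte, hepatocyte and erythroid markers summed to at most 6.70, 1.31 and 2.80 CPM and fibroblast markers to at most 44.2 CPM. The gene VIM alone gave 965 to 1229 CPM of the 293 line sum, and each other gene of that list stood at 13.1 to 103 CPM. Because the control library entered every fold change, the mean of the control TF libraries was used as a second reference. More cells with a transcript and more transcript per cell cannot be told apart in RNA of a whole culture.

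The pairs had the geometry that the name implies. In 576 of 577 pairs the DT lay on the strand opposite to the partner, and in 510 of them the annotated starts were within 1000 bp. The DT start lay upstream of the partner start in 411 of these 510. The distance of the DT start upstream of the partner start, negative where the DT started downstream of it, had a median of 124 bp over the opposite-strand pairs (quartiles 13.75 and 275 bp). In 135 pairs the DT started inside the partner gene, and in 19 the whole DT lay within the partner. The exon length of 115 DTs equalled their span, so these were annotated without an intron. Exons of DT and partner overlapped in 113 pairs and did not in 464. No source used here gives the strand setting of the counting, so reads of DT and partner cannot be told apart in overlapping exons. The catalogue of 1731 conserved lncRNAs of the study held 72 of the 579 DTs.

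**Figure D1:**
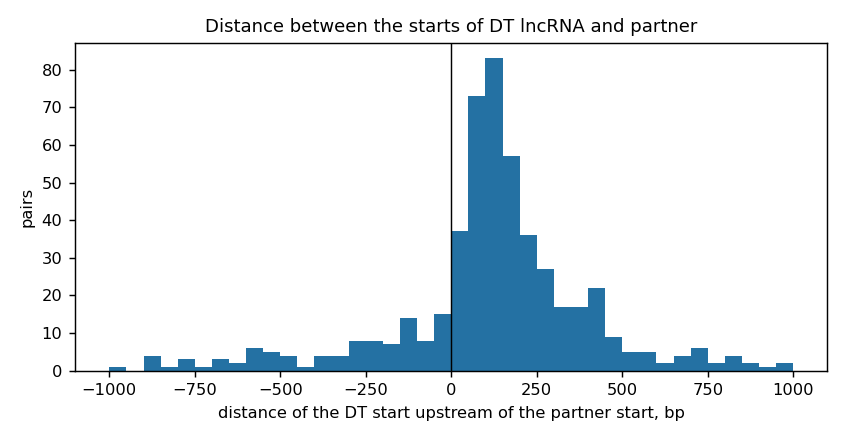
Number of pairs (y axis) by distance of the DT start upstream of the partner start in bp (x axis, bins of 50 bp) for the 510 opposite-strand pairs with starts within 1000 bp. Most pairs lie right of 0, where the DT starts upstream of its partner, and 411 of the 510 are on that side.

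DTs were detected in a larger share than other lncRNAs but at low levels. A mean of at least 0.5 CPM over the 9 libraries was reached by 220 of 579 DTs (38.0%), against 1322 of the 13660 other GENCODE lncRNAs (9.68%). A mean of at least 1 CPM was reached by 148 DTs and a mean of at least 10 CPM by 9. The median of the 220 was 1.58 CPM. Counts were present in all 9 libraries for 325 DTs, and 42 had no count in any library. The partners were expressed in 533 of 576 cases (92.5%) by the same rule, and protein-coding genes without a DT in 12683 of 19242 cases (65.9%). Measured partners had a median of 35.4 CPM and measured protein-coding genes without a DT 28.3 CPM. The DTs had a median exon length of 1232 bases and the other GENCODE lncRNAs of 708, and the part of length in the higher detection was not tested.

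Per kb of exon, the median DT reached 13.2% of the level of its partner over the 220 measured pairs (quartiles 4.78% and 42.3%), and 26 DTs were above their partner. Among the DTs of highest mean level were ZNF584-DT, PAXIP1-DT, SLC12A2-DT, CTBP1-DT and BAIAP2-DT. ZNF584-DT, on the minus strand of chromosome 19 from 58915605 to 58919851, lies wholly inside ZNF584, a zinc finger gene on the plus strand from 58912871 to 58929694, and so does not start at the annotated start of its partner. It had 18.9 CPM in the control library, and the TF libraries lay at 16.8 to 23.1 CPM. None of these 5 changed 2-fold in any TF library, and with 219 to 347 counts in the control library they were among the most deeply counted DTs. PAXIP1-DT, beside a gene of a histone methyltransferase complex, stood at 13.0 to 20.8 CPM over the 9 libraries. SLC12A2-DT, beside the gene of a sodium-potassium-chloride cotransporter, was within 14.1 to 17.5 CPM and CTBP1-DT, beside a corepressor gene, within 12.7 to 16.6 CPM.
The 3 DTs highest relative to their partner per kb were PKD2L2-DT, ANKHD1-DT and CHKB-DT. PKD2L2, a polycystin family gene, had 0 to 4 counts in a library against 23 to 44 for PKD2L2-DT. ANKHD1 had 27 to 47 counts against 9 to 47 for ANKHD1-DT, and CHKB, a choline kinase gene, had 6 to 25 counts against 24 to 36 for CHKB-DT, which also lies within its annotated partner. ANKHD1 and CHKB overlap a readthrough gene on the same strand, ANKHD1-EIF4EBP3 with 13 to 25 counts and CHKB-CPT1B with 6 to 18, so their counts are uncertain.

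**Figure D2:**
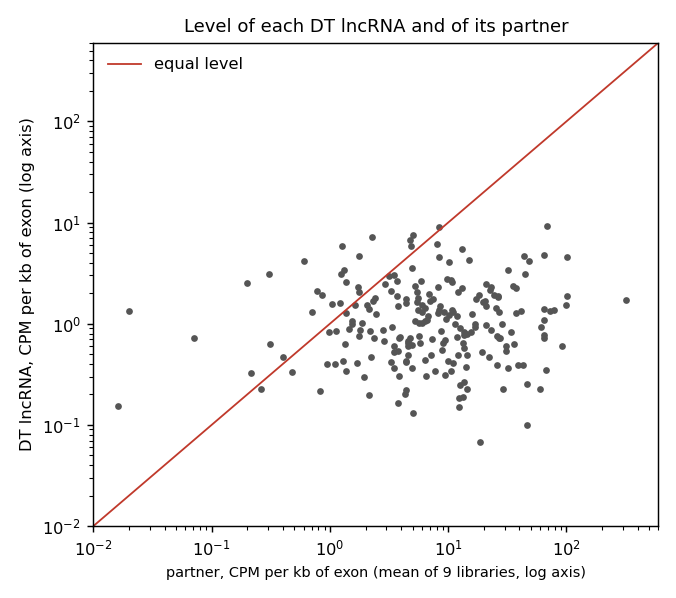
Mean level over the 9 libraries of each of the 220 measured DT lncRNAs (y axis, CPM per kb of exon, log axis) against its partner (x axis, same unit and scale), 1 point per pair. The line marks equal levels, and 26 points lie above it.

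A gene was tested in a comparison when it had at least 1 CPM in the higher of the TF library and the control library, after scaling by TMM, a normalization that sets the libraries on a common level from the bulk of the genes. It rose or fell when its log2 fold change (log2FC, with a prior count of 2) was at least 1 in size. In the NRF1 library 29 of 186 tested DTs rose (15.6%) and 0 fell. The background in that library was 8.24% of all genes that rose, 0.235% that fell and 17.9% of GENCODE lncRNAs that rose, so the share of DTs was near that of lncRNAs in general. In the E2F4 library 7 of 164 DTs rose (4.27%) and 1 fell, beside 3.68% and 0.261% of all genes and 5.0% of lncRNAs that rose. In the EGR1 library 4 of 159 rose and 1 fell, beside 2.50%, 0.280% and 4.21%. In the ZBTB7A library 3 of 160 rose and 3 fell, beside 1.92%, 0.439% and 3.70%. NRF1 thus had the most raised DTs of the 8 TFs, as it had the most raised genes.
Among the control TFs, NKX2-8 gave 4 DTs that rose and 6 that fell of 163, beside 2.83% of all genes that rose, 0.879% that fell and 5.08% of lncRNAs that rose. HOXA11 gave 2 and 0 of 158 (background 1.17%, 0.340% and 1.95%) and RORA 3 and 3 of 160 (0.522%, 0.393% and 1.80%). TFCP2 gave 1 and 1 of 159 (0.491%, 0.185% and 1.76%). Of 203 DTs tested in at least 1 TF library, 51 changed in at least 1 and 4 in at least 3. The same was not counted over all genes, so these numbers have no background, and all 8 comparisons share the control library.
Partners were counted in the same way. In the NRF1 library 15 of 531 tested partners rose (2.82%), against 6.64% of protein-coding genes without a DT. In the E2F4 library 11 of 529 rose (2.08%, against 3.41%), and in the 6 other TF libraries 0 to 4 did (0% to 0.756%, against 0.325% to 2.50%). No partner fell in any TF library, and of protein-coding genes without a DT 0.0916% to 0.328% fell. The difference between partners and these genes was not tested. Measured DTs had a median level of 1.58 CPM and their partners 41.0 CPM, so counting error was wider for the DTs, and how often DTs and partners passed 2-fold cannot be compared directly.
Over the 220 measured DTs the median log2FC was 0.15 in the NRF1 library and -0.13 to -0.01 in the other 7, and over the 1542 measured GENCODE lncRNAs it was 0.19 and -0.09 to 0.04. The summed level of all DTs was 738 CPM in the NRF1 library, 648 CPM in the control library, and from 613 to 661 CPM with the remaining 7 TFs. DTs made up 6.72% to 7.20% of the lncRNA level in all 9 libraries.

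**Figure D3:**
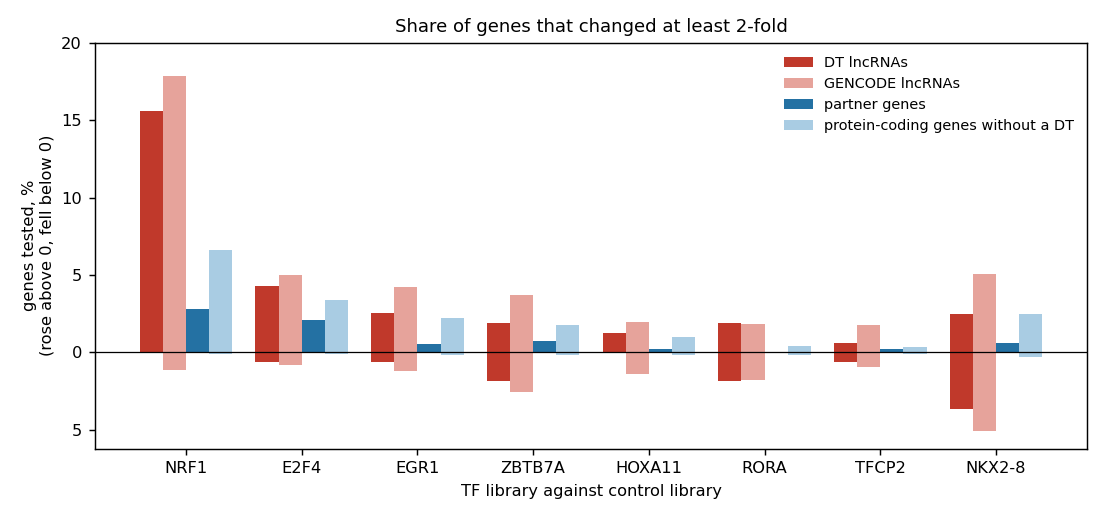
Share of tested genes in % (y axis) that rose (bars above 0) or fell (bars below 0) at least 2-fold against the control library, for DT lncRNAs, all GENCODE lncRNAs, partner genes and protein-coding genes without a DT, in each of the 8 TF libraries (x axis). DT bars reach 15.6% for NRF1 and stay at or below 4.27% for the other TFs, and no partner bar extends below 0.

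NRF1 activates nuclear genes whose products serve the mitochondrion. Of the 29 DTs raised in its library, 22 rose in no other TF library, a description of DTs chosen by their NRF1 value, since differences between TFs were not tested. The same share over all genes raised with NRF1 was not counted. The 4 largest rises were those of PRR15-DT, RABGAP1L-DT, PFKP-DT and BTG1-DT, all of which had 1 to 3 counts in the control library and were tested only because they reached 1 CPM in the NRF1 library. On GRCh37 PRR15-DT lies on chromosome 7 from 29553841 to 29603286, RABGAP1L-DT on chromosome 1 from 174084438 to 174129142, and PFKP-DT on chromosome 10 from 3107616 to 3108193. These 3 are minus strand genes, and BTG1-DT lies on chromosome 12 from 92539349 to 92583436 on the plus strand.
RABGAP1L-DT, beside the gene of a Rab GTPase-activating protein, had 3 counts in the control library and 40 in the NRF1 library. The E2F4, EGR1 and ZBTB7A libraries had 2, 4 and 3 counts, and the HOXA11, RORA, TFCP2 and NKX2-8 libraries 3, 10, 6 and 8. Only the NRF1 library stood apart, at 2.52 CPM against at most 0.604 CPM elsewhere, and the ratio to the control library was 15.5 (95% interval 4.93 to 78.1, counting error only, as all such intervals here). The partner RABGAP1L had 709 and 615 counts in the same 2 libraries, a log2FC of 0.01.
PRR15-DT had 1 count in the control library and 27 in the NRF1 library, and its ratio was 31.3 (95% interval 5.16 to 1282). Elsewhere it had 1 count for E2F4, 5 for EGR1, 2 for ZBTB7A, and 8, 3, 3 and 5 counts for HOXA11, RORA, TFCP2 and NKX2-8. The partner PRR15 had 40 and 67 counts, a log2FC of 0.92, so the DT level relative to the partner was 15.9 times that of the control library (95% interval 2.43 to 676).
PFKP-DT, beside the gene of the platelet phosphofructokinase of glycolysis, had 20 counts in the NRF1 library and 1 to 3 in each of the other 8. Its ratio to the control library was 23.2 (95% interval 3.71 to 961), while PFKP itself, with 2731 and 2407 counts, had a log2FC of 0.03. BTG1-DT, beside an antiproliferative gene, had 3 counts in the control library, 24 in the NRF1 library and 5 to 10 in the other 7. The BTG1-DT ratio was 9.28 (95% interval 2.82 to 48.1) against a BTG1 log2FC of -0.37, and exons of the pair overlap by 325 bases. Against the mean of the control TF libraries the log2FC of these 4 DTs in the NRF1 library was 2.30 for RABGAP1L-DT, 2.15 for PRR15-DT, 2.33 for PFKP-DT and 1.76 for BTG1-DT, all still past 2-fold.
The other raised DTs with more counts were closer to the threshold. ANKHD1-DT had 18 counts in the control library and 47 in the NRF1 library (ratio 3.03, 95% interval 1.73 to 5.54), with 9 to 27 in the other 7. FOXF2-DT, beside a forkhead TF gene, had 38 and 95 counts (ratio 2.90, 95% interval 1.97 to 4.34). CABP1-DT, beside the gene of a neuronal calcium-binding protein, had 25 and 65 (ratio 3.02, 95% interval 1.87 to 4.99). FOXF2-DT and CABP1-DT were chosen after their values were seen. The raised set also held the DTs of NECTIN1, EDIL3, CDK13, ZNF516, LY6E, PDGFA, TOX, POLG, SUCLG2, GALNT7, TMEM14B, PAQR5, CHD1, TNKS2, PPM1L, PRDM16, SLC20A1, NUDT19, ZNF582, EOLA1, HNRNPD and RNF139. The control counts of the 29 ran from 1 to 61, and for 28 the 95% interval of the ratio lay above 1.
The control library was the lowest of the 9 for 9 of the 29. Against the mean of the control TF libraries 29 of 180 tested DTs rose as well (16.1%), 22 of them the same genes. With this reference 967 of 14866 genes in all rose in the NRF1 library (6.505%). Of the 29, 21 had no exon overlap with the partner (of 141 such DTs tested) and 4 were conserved lncRNAs (of 31 tested). Antisense lncRNAs, named after a gene with the ending -AS, rose in 64 of 382 cases in the NRF1 library (16.8%), close to the 15.6% of the DTs.

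**Figure D4:**
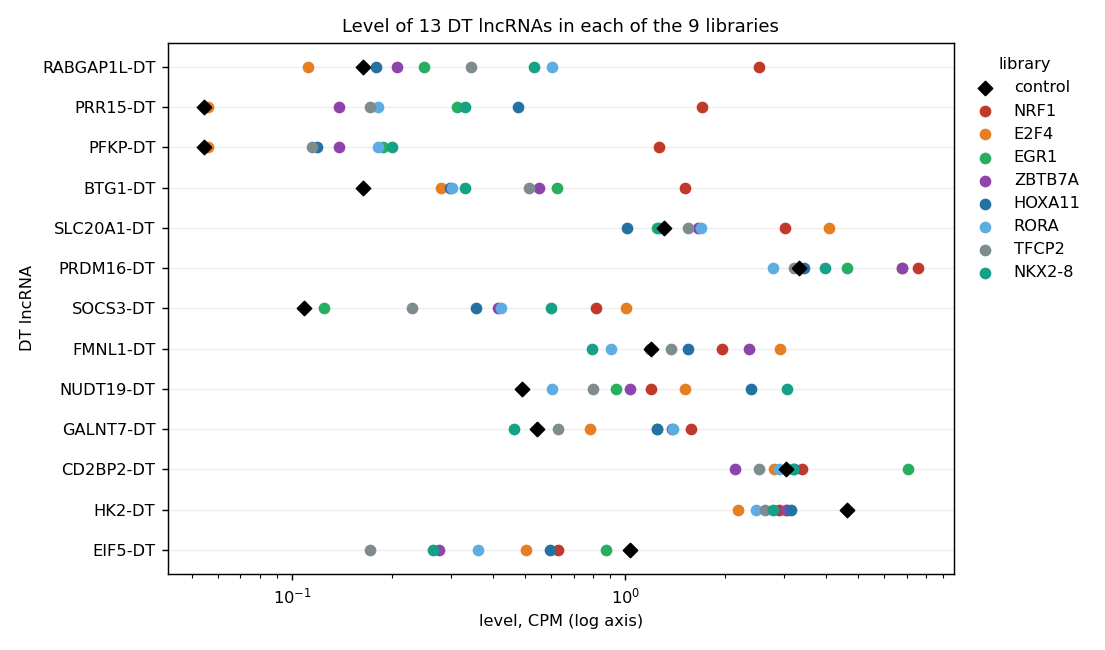
Level of 13 DT lncRNAs (rows) in CPM on a log axis (x axis), 1 point per library, with a black diamond for the control library. The NRF1 library lies apart at the right for RABGAP1L-DT, PRR15-DT, PFKP-DT and BTG1-DT, and the control library is at the low end for NUDT19-DT and the high end for HK2-DT and EIF5-DT.

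E2F4 is a cell cycle regulator that works with the retinoblastoma family of pocket proteins. The 7 DTs raised in its library were SOCS3-DT, SLC20A1-DT, NUDT19-DT, FMNL1-DT, DOCK9-DT, CABP1-DT and PRDM16-DT. SLC20A1-DT, beside the gene of a sodium-phosphate cotransporter, had 24 counts in the control library, 48 with NRF1, 73 with E2F4, 20 and 24 in the EGR1 and ZBTB7A libraries and 17 to 28 in the 4 control TF libraries. E2F4 and NRF1 were the 2 highest libraries, with ratios to the control library of 3.13 (95% interval 1.95 to 5.2) and 2.32 (1.39 to 3.96). SLC20A1 had 1650 counts in the control library, 2416 in the E2F4 library and 1414 in the NRF1 library, so it was higher with E2F4 (log2FC 0.59, under the threshold) but not with NRF1 (-0.01). The SLC20A1-DT to SLC20A1 ratio was 2.08 times that of the control library for E2F4 (95% interval 1.29 to 3.46) and 2.33 times for NRF1 (1.39 to 4.0).
SOCS3-DT, beside the gene of an inhibitor of cytokine signalling, had 2 counts in the control library and 18 in the E2F4 library, 13 with NRF1, 2 with EGR1, 6 with ZBTB7A and 4 to 9 in the control TF libraries. In the E2F4 library SOCS3-DT was at 9.27 times the control level (95% interval 2.22 to 82.3) and SOCS3 rose too, from 37 to 91 counts (ratio 2.53, 95% interval 1.71 to 3.82). FMNL1-DT, beside a formin gene of the actin cytoskeleton, had 22 counts in the control library and 52 in the E2F4 library (ratio 2.43, 95% interval 1.45 to 4.21). FMNL1 had 115 and 222 counts there, a log2FC of 0.98, and the exons of the pair overlap by 637 bases.
PRDM16-DT, a conserved lncRNA beside the gene of a zinc finger regulator of brown fat, rose in 3 of the 4 CLB_TF libraries. It lies on the minus strand of chromosome 1 from 2976179 to 2985001 and starts 731 bp upstream of PRDM16. It had 61 counts in the control library and 120 with NRF1, 121 with E2F4, 74 with EGR1 and 98 with ZBTB7A. HOXA11, RORA, TFCP2 and NKX2-8 had 58, 46, 56 and 60 counts. The 4 CLB_TF libraries stood at 4.62 to 7.57 CPM and the 4 control TF libraries at 2.78 to 3.98 CPM. How many of all genes separate the 2 classes in this way was not counted, and PRDM16-DT was named for its rises. The ratio to the control library was 2.28 for NRF1 (95% interval 1.66 to 3.16), 2.04 for E2F4 (1.49 to 2.83) and 2.04 for ZBTB7A (1.47 to 2.86). For E2F4 and ZBTB7A the log2FC of PRDM16-DT was 1.0, at the threshold, and 0.99 against the mean of the control TF libraries. PRDM16 had 382 counts in the control library and log2FC of 0.20, -0.08 and 0.14 in these 3 libraries.
HK2-DT, beside a hexokinase gene, was the 1 DT that fell with E2F4, from 85 to 39 counts (ratio 0.472, 95% interval 0.315 to 0.698). The control library was the highest of the 9 for HK2-DT, at 4.62 CPM against 2.18 to 3.15 CPM in the 8 TF libraries. Against the mean of the control TF libraries its log2FC with E2F4 was -0.32.

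EGR1 is an immediate early zinc finger protein. CD2BP2-DT, beside the gene of a protein of the U5 splicing particle, had 56 counts in the control library and 113 in the EGR1 library (ratio 2.32, 95% interval 1.67 to 3.25). The other TF libraries had 54 for NRF1, 50 for E2F4, 31 for ZBTB7A and 44 to 54 for the control TFs. EGR1 alone stood apart, at 7.06 CPM against 2.14 to 3.41 CPM, and the log2FC against the mean of the control TF libraries was 1.22. CD2BP2 had 2204 and 1895 counts (log2FC -0.02), the pair shares no exon bases, and the CD2BP2-DT to CD2BP2 ratio was 2.35 times that of the control library (95% interval 1.68 to 3.31).
TMEM167B-DT had 13 counts in the control library, 32 with EGR1, 13 to 21 with the remaining CLB_TFs and 17 to 25 in the control TF libraries. It rose with EGR1 (ratio 2.83, 95% interval 1.44 to 5.87) and with NKX2-8 (2.35, 1.16 to 5.0), its exons overlap those of TMEM167B by 1056 bases, and against the mean of the control TF libraries its log2FC with EGR1 was 0.55. ARHGAP11B-DT rose from 8 to 20 counts (ratio 2.87, 95% interval 1.21 to 7.54). ARHGAP11B had 1 to 6 counts in a library and shares its span with another protein-coding gene of 24 to 49 counts, so its own level is uncertain. B4GAT1-DT, beside the gene of a glycosyltransferase of dystroglycan, fell from 33 to 13 counts with EGR1 (ratio 0.452, 95% interval 0.219 to 0.883), whereas E2F4 had the highest count, 55. The fall of B4GAT1-DT is near the threshold: the log2FC was -0.99 with library totals, -0.91 with a prior count of 5 and -0.61 against the mean of the control TF libraries, and ARHGAP11B-DT had 0.90 against that mean.
With ZBTB7A, a POZ domain zinc finger repressor of blood lineages, ERICH2-DT, which starts 13018 bp upstream of ERICH2, rose from 10 to 18 counts (ratio 2.29) with a 95% interval whose lower limit was 1.0. ADCY6-DT, beside an adenylyl cyclase gene, fell from 19 to 5 counts (ratio 0.334, 95% interval 0.0976 to 0.926), and the 7 other TF libraries had 10 to 18. ADCY6-DT did not pass against the mean of the control TF libraries, at a log2FC of -0.89.

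Of the control TFs, NKX2-8 changed 10 of 163 DTs (6.13%, beside 3.71% of all genes), more than any TF but NRF1. The 6 that fell were 3.68% of the DTs tested, beside 0.879% of all genes and 5.08% of GENCODE lncRNAs, and were the most of the 8 TF libraries. They were EOLA2-DT, PRKACB-DT, VPS13B-DT, USP27X-DT, AP1AR-DT and EIF5-DT, of which the first 5 were chosen after their values were seen.
PRKACB-DT, beside the gene of a catalytic subunit of protein kinase A, had 84 counts in the control library, 30 with NKX2-8 and 56 to 98 in the 7 other TF libraries (ratio 0.436, 95% interval 0.277 to 0.668), while PRKACB had a log2FC of 0.09. USP27X-DT, beside a deubiquitinase gene, had 30 counts in the control library, 9 with NKX2-8 and 18 to 40 elsewhere (ratio 0.366, 95% interval 0.153 to 0.791), while USP27X had 0.21. EOLA2-DT had 86 and 29 counts and 60 to 104 elsewhere (ratio 0.412, 95% interval 0.260 to 0.633), but EOLA1 and EOLA2 are near-identical copies, so its count is uncertain. For these 3 the NKX2-8 library was the lowest of the 9, and with control TF libraries (without NKX2-8) as reference all 3 stayed past 2-fold, with log2FC of -1.20 for PRKACB-DT, -1.08 for USP27X-DT and -1.32 for EOLA2-DT. VPS13B-DT (51 to 18 counts) and AP1AR-DT (22 to 8) did not, at -0.87 and -0.73.
The other DTs named for the control TFs had lower counts. USP34-DT, beside a deubiquitinase gene, had 10 counts in the control library and 23 with RORA (ratio 2.56, 95% interval 1.17 to 6.02). DLX2-DT, beside a homeobox gene, had 20 and 6 with RORA (ratio 0.333, 95% interval 0.11 to 0.861). SEPTIN7-DT, beside a cytoskeletal septin gene, had 12 and 29 with TFCP2 (ratio 2.54, 95% interval 1.26 to 5.47). The partner log2FC in these 3 cases was 0.16, 0.06 and -0.10. AJUBA-DT, beside the gene of a LIM domain scaffold protein, had 8 counts in the control library, 22 with NKX2-8 and 9 to 14 in the 7 other TF libraries (ratio for NKX2-8 3.36, 95% interval 1.44 to 8.72). None of these 4 passed when the 3 remaining control TF libraries were the reference, with log2FC of 0.79 for USP34-DT, -0.96 for DLX2-DT, 0.78 for SEPTIN7-DT and 0.97 for AJUBA-DT.

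The 4 DTs that changed in at least 3 TF libraries were PRDM16-DT, NUDT19-DT, GALNT7-DT and EIF5-DT, and for the last 3 the control library lay at or near 1 end of the range. NUDT19-DT, beside the gene of a nudix hydrolase of coenzyme A, had 9 counts in the control library, 19 with NRF1, 27 with E2F4, 15 with EGR1, 15 with ZBTB7A, 40 with HOXA11, 10 with RORA, 14 with TFCP2 and 46 with NKX2-8. The control library was the lowest, and HOXA11 and NKX2-8 were the highest, at 2.38 and 3.05 CPM. The ratio to the control library was 4.86 for HOXA11 (95% interval 2.32 to 11.4) and 6.24 for NKX2-8 (3.02 to 14.5). Against the control TF libraries (their mean, without the library itself) the NUDT19-DT log2FC stayed past the threshold for NKX2-8 (1.20), was 0.64 for HOXA11, and turned negative for NRF1 (-0.47) and E2F4 (-0.16). NUDT19 had 288 counts in the control library and 222 with NKX2-8 (log2FC -0.09), so the NUDT19-DT to NUDT19 ratio was 6.61 times that of the control library (95% interval 3.11 to 15.7).
GALNT7-DT, a conserved lncRNA beside a gene of mucin-type O-glycosylation, had 10 counts in the control library, 25 with NRF1, 14 with E2F4, 20 with EGR1, 20 with ZBTB7A, 21 with HOXA11, 23 with RORA, 11 with TFCP2 and 7 with NKX2-8. It rose in 5 TF libraries of both classes, with ratios of 2.30 to 2.90. Against the mean of the control TF libraries none of the 5 passed, with log2FC of 0.38 to 0.74.
EIF5-DT, beside a translation initiation factor gene, had 19 counts in the control library, 10 with NRF1, 9 with E2F4, 14 with EGR1, 4 with ZBTB7A, 10 with HOXA11, 6 with RORA, 3 with TFCP2 and 4 with NKX2-8. EIF5-DT lies on chromosome 14 from 103798011 to 103798704, 1177 bp upstream of EIF5. The control library was the highest of the 9, and EIF5-DT fell with ZBTB7A (ratio 0.268), RORA (0.351), TFCP2 (0.166) and NKX2-8 (0.257). Against the mean of the control TF libraries none of these 4 passed, and the EIF5-DT log2FC with RORA was 0.056. The part of the control library in these results was not tested further.

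DT and partner were then compared within each pair. The partners of the 29 DTs raised with NRF1 had a median log2FC of -0.13 (range -0.51 to 1.29), 17 of them were below 0 and 1 rose, which was TOX. The median over the partners of all 220 measured DTs in the NRF1 library was -0.07. The partners of the 7 DTs raised with E2F4 had a median of 0.59 (range -0.08 to 1.29), 6 of the 7 were above 0 and 2 rose, SOCS3 and CABP1. Across the 220 pairs, Spearman's rho of the DT and partner log2FC was 0.26 for E2F4, 0.10 for NRF1 and -0.12 to 0.03 for the 6 other TFs. These points share their 2 libraries, genes are not independent replicates, and rho is given as a description.
The level of the DT relative to its partner does not depend on the scaling of the libraries. It moved at least 2-fold with a 95% interval that left out 1 in 29 of 185 pairs with NRF1 (28 up and 1 down), 7 of 163 with E2F4 (3 and 4), 4 of 158 with EGR1 (4 and 0) and 6 of 158 with ZBTB7A (2 and 4). With the control TFs it moved in 5 of 156 pairs for HOXA11 (3 and 2), 8 of 159 for RORA (4 and 4), 3 of 158 for TFCP2 (1 and 2) and 15 of 161 for NKX2-8 (7 and 8). Most NRF1 pairs that moved were therefore those whose DT rose relative to the partner. The share of DT pairs that moved is set beside that of pairs of an antisense lncRNA and its gene. It was 15.7% against 21.7% with NRF1, 4.29% against 10.4% with E2F4, 2.53% against 4.72% with EGR1 and 3.80% against 8.10% with ZBTB7A. With the control TFs it was 3.21% against 4.30% for HOXA11, 5.03% against 2.29% for RORA, 1.90% against 2.61% for TFCP2 and 9.32% against 11.1% for NKX2-8. RORA was the 1 library in which DT pairs had the larger share, and the differences were not tested.
BAIAP2, whose product couples membrane curvature to actin, showed a difference on the partner side when EGR1 was set against the control library. It had 582 counts in the control library, 971 with EGR1 and 472 to 675 with the 7 other TFs (ratio for EGR1 1.92, 95% interval 1.73 to 2.13, log2FC 0.94 and so under the threshold). BAIAP2-DT had 219 and 189 counts (ratio 0.991, 95% interval 0.812 to 1.21), and the BAIAP2-DT to BAIAP2 ratio was 0.517 times that of the control library (95% interval 0.413 to 0.649). For BAIAP2-DT only the EGR1 library, at 11.8 CPM, was below the control library, and the control TF libraries had a mean of 13.4 CPM. Whether BAIAP2-DT differed with EGR1 thus depends on the reference.

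**Figure D5:**
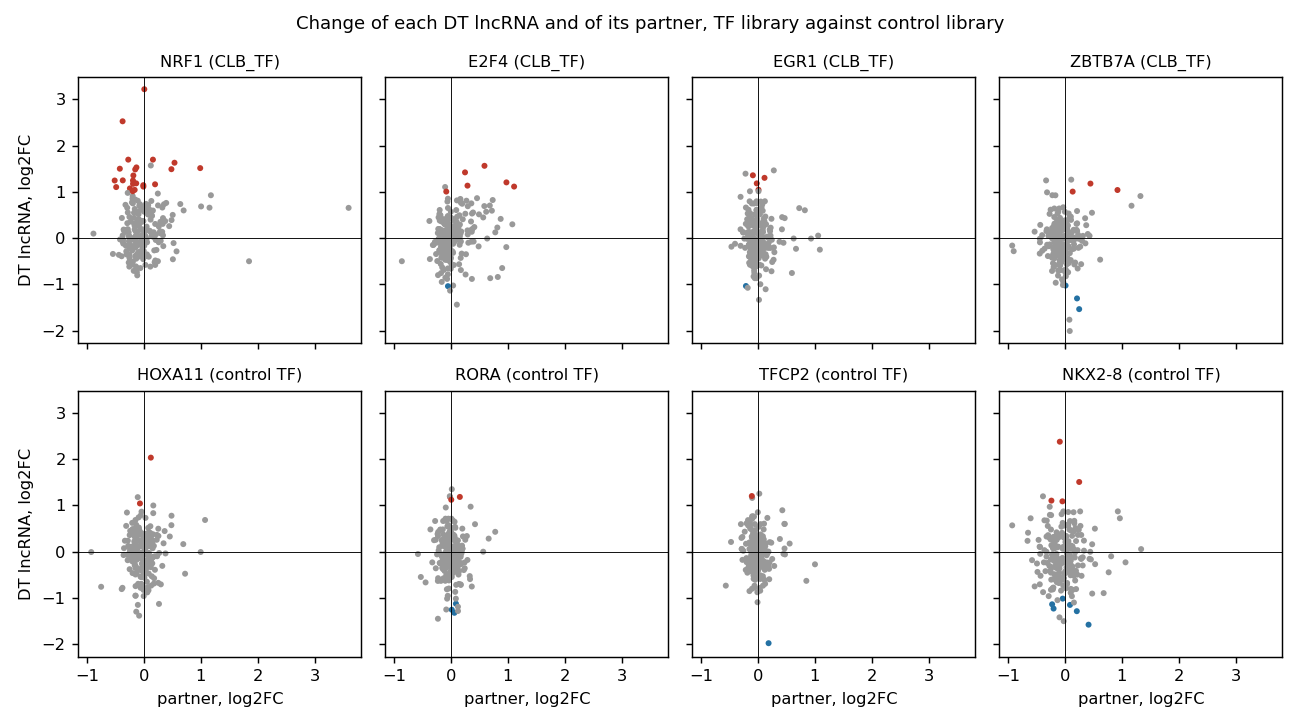
log2FC of each of the 220 measured DT lncRNAs (y axis) against the log2FC of its partner (x axis), TF library against control library, 1 panel per TF. Red points are DTs that rose and blue points DTs that fell, among DTs with a mean of at least 0.5 CPM. With NRF1 most red points stand at a partner log2FC near 0, and with E2F4 most lie to the right of 0.

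The pairs were also read from the partner's side. Of the 15 partners raised with NRF1, 4 had a DT with enough counts to be tested, and TOX-DT was the 1 of them that rose, from 8 to 25 counts, as TOX, a gene of an HMG-box TF, went from 21 to 47. The exons of TOX-DT and TOX overlap. CFAP58, a gene of motile cilia and flagella, rose from 6 to 84 counts (ratio 16.2, 95% interval 7.16 to 45.5), while CFAP58-DT had 11 and 16 counts (ratio 1.69, 0.735 to 4.02). The CFAP58-DT to CFAP58 ratio was 0.107 times that of the control library (95% interval 0.0280 to 0.367), and this was the 1 pair that moved down. EPM2A, which encodes the glycogen phosphatase laforin, had 71 and 141 counts with NRF1, and EPM2A-DT 24 and 41 (log2FC 1.18 and 0.92). FMNL1 rose with NRF1 (115 to 223 counts) and with ZBTB7A (230), where FMNL1-DT had log2FC of 0.66 and 0.91.
Of the DTs of all 15 partners raised with NRF1, 6 were higher than in the control library and 5 had 0 counts in both libraries. Their summed counts were 85 in the control library and 134 with NRF1, a ratio of 1.83 (95% interval 1.38 to 2.43). Of the 220 measured DTs, 135 had a log2FC above 0 with NRF1. Some of the raised partners had DTs at or near 0. VSTM2B had 13 and 152 counts, DPP4, a dipeptidyl peptidase gene, 78 and 209, and S1PR1, a sphingosine-1-phosphate receptor gene, 52 and 126. VSTM2B-DT, DPP4-DT and S1PR1-DT had 0 counts in both libraries, which allows up to 3 counts, or 0.163 CPM in the control library and 0.189 CPM in the NRF1 library.
CABP7, which encodes a calcium-binding protein, rose in all 4 CLB_TF libraries. It had 11 counts in the control library and 161 with NRF1, 116 with E2F4, 45 with EGR1 and 78 with ZBTB7A, against 9 to 14 in the 4 control TF libraries. The CABP7 ratio to the control library was 17.0 with NRF1 (95% interval 9.24 to 34.7) and 4.70 with EGR1 (2.39 to 10.1), the lowest of the 4. CABP7-DT, which starts 225 bp upstream, had 0 counts in all 9 libraries, so a change of this DT was not detectable at this depth.
With E2F4, 11 partners rose and 9 of their DTs had a higher level than in the control library. Of the 220 measured DTs, 109 had a log2FC above 0 with E2F4. The DTs of the 11 raised partners summed to 140 counts in the control library and 238 with E2F4, a ratio of 1.75 (95% interval 1.41 to 2.17). CABP1 had 45 and 97 counts and CABP1-DT 25 and 55, ratios of 2.22 (95% interval 1.54 to 3.23) and 2.27 (1.39 to 3.79), and the CABP1-DT to CABP1 ratio was 1.02 times that of the control library (0.545 to 1.93). CEBPA, a leucine zipper TF gene, rose from 412 to 849 counts while CEBPA-DT had 96 and 115, and the CEBPA-DT to CEBPA ratio was 0.582 times that of the control library (95% interval 0.428 to 0.791). TTC9 rose from 205 to 477 counts, and TTC9-DT had 0 and 13 counts, at least 4.46-fold higher when 3 counts stand for 0. TMEM132E rose from 425 to 959 and TMEM132E-DT had 1 and 12 counts (ratio 12.4, 95% interval 1.83 to 528). GNAO1, which encodes a G protein subunit of neurons, rose from 292 to 1029 and GNAO1-DT had 2 and 10 counts (ratio 5.15, 95% interval 1.10 to 48.3). Of these 3 DTs none reached 1 CPM, so none was tested. TOX-DT, with 8 and 4 counts, was the 1 with a lower level.

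For the comparison of the 4 CLB_TF libraries with the 4 control TF libraries the TFs of a class stood in for replicates, and the control library was left out. In edgeR's quasi-likelihood test with Benjamini-Hochberg adjustment, 6 of 15012 genes passed an adjusted p of 0.05 (0.04%), among them 0 of 196 DTs and 1 of 532 partners. That partner was CABP7 (log2FC 3.22, adjusted p = 0.0284 in this edgeR test). Without HOXA11, RORA, TFCP2 or NKX2-8, each left out in turn, the test called 0 partners and also 0 of all genes. At an unadjusted p under 0.05 there were 12 DTs (6.12%), 51 partners (9.59%) and 1531 genes in all (10.2%), and DESeq2 called 2 DTs (1.02%) and 6 partners (1.13%) beside 0.946% of all genes. With no filter on low counts edgeR called 5 DTs (0.931%) and 21 partners (3.70%) beside 2.26% of all genes. PRDM16-DT came nearest among the DTs, at 6.43 ± 1.26 CPM against 3.35 ± 0.502 CPM (SD, n = 4 each), with a log2FC of 0.95 and an adjusted p of 0.127 in edgeR's quasi-likelihood test with Benjamini-Hochberg adjustment. FOXF2-DT had a log2FC of 1.10 (4.21 against 1.97 CPM) and an adjusted p of 0.188 in the same edgeR test. FMNL1 was at 13.0 against 7.37 CPM, with a log2FC of 0.83 and an adjusted p of 0.0922 in the edgeR test.

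The factors that end or degrade divergent transcripts were looked at as gene lists. The lists were the nuclear exosome and its targeting complexes (21 genes), Integrator (15), U1 snRNP proteins (6), cleavage and polyadenylation factors (17) and cap-proximal surveillance factors (6). All members were tested in all 8 TF libraries, and 0 rose and 0 fell. Every member stood above 5 CPM. With that minimum 2.65% of all genes changed with NRF1, 2.55% with E2F4 and at most 0.765% with the other TFs. At these shares lists of 6 to 21 genes would hold few calls, so the absence of calls says little about these factors. The list medians ran from -0.19 for U1 snRNP proteins with NRF1 to 0.05 for Integrator with NKX2-8, and over all measured protein-coding genes the median was -0.04 to 0.00. Exosome genes summed to 1326 CPM in the control library, the highest of the 9, to 1186 CPM in the NRF1 library, the lowest, and to 1231 to 1303 CPM in the other 7. The NRF1 library was also lowest for Integrator (991 CPM), cleavage and polyadenylation (1455 CPM) and cap-proximal surveillance (576 CPM). For U1 snRNP proteins it had 1188 CPM, and NKX2-8 was lowest at 1135 CPM. The partners too summed lowest with NRF1, to 39138 CPM against 41040 to 43676 CPM, so the low sum was not particular to the exosome.

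The promoter windows of DTs were rich in G and C like those of their partners. Where the starts of a pair are close, its 2 windows hold much of the same DNA, so this likeness was in part fixed by the geometry. In the 300 bases from 250 before to 50 after the start, the median GC content was 67.7% for DTs, 65.7% for partners, 59.7% for protein-coding genes and 48.3% for GENCODE lncRNAs. The observed over expected CpG ratio was 0.85, 0.86, 0.68 and 0.28. Exact matches on both strands to the NRF1 motif GCGCATGCG were in 3.97% of DT windows, 2.95% of partner windows, 2.18% of protein-coding and 0.794% of lncRNA windows. Of the 29 DTs raised with NRF1, 1 held a match (3.45%), beside 8 of the 157 tested DTs that did not rise (5.10%). The E2F motifs TTTGGCGC and TTTCCCGC were in 3.63% of DT windows, 3.99% of partner windows, 2.56% of protein-coding and 0.970% of lncRNA windows. The EGR motif GCGNGGGCG was in 16.6%, 14.4%, 10.5% and 3.43% of windows. These classes include genes below the measured level. Among measured genes the median GC content was 69.3% for DTs, 62.7% for protein-coding genes and 61.3% for GENCODE lncRNAs. In the same order the CpG ratio was 0.89, 0.79 and 0.73 and the NRF1 motif was in 6.82%, 2.92% and 3.44%. The E2F motifs were in 2.27%, 3.08% and 2.33% and the EGR motif in 14.5%, 13.7% and 9.92%. BAIAP2 held 2 EGR matches, at bases 114 to 122 and 157 to 165 of the sequence shown, both between the starts of BAIAP2-DT and BAIAP2, and the CD2BP2 window held none. The same window of PAXIP1, whose DT changed in no TF library, held 3 EGR matches that overlap each other, at bases 225 to 233, 231 to 239 and 237 to 245. None of the motif letters of NRF1 or E2F were found in the 6 windows shown.
DTs differed from their partners in the first 1000 bases downstream of the start. The polyadenylation hexamer AATAAA occurred on the transcribed strand in 39.2% of DTs and 16.1% of partners, with 22.2% of protein-coding genes and 45.1% of GENCODE lncRNAs. The 5′ splice site letters GGTAAG occurred in 18.7% of DTs and 23.4% of partners, with 26.5% and 25.1% in the same 2 classes. A match is a description of the DNA and not a sign of use.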

How the data were processed

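Paired-end RNA-seq libraries of 9 transfected 293T cultures were analysed, 1 per condition. For read quality the authors used FastQC 0.11.2, for alignment to GRCh37 STAR 2.6.0c and for counting featureCounts 1.6.3. The deposited table holds their raw counts per gene, with no normalization. No source used here gives the strand setting. Of 36202 Ensembl IDs, 35408 received a symbol from GENCODE v44lift37, which also gave gene starts and exons. Exon lengths are those of the deposited table.

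Counts were scaled by TMM (edgeR 4.0.16, R 4.3.3). A gene was tested at 1 CPM in the higher library and changed at 2-fold (prior count 2). Ratios have exact conditional binomial intervals and DT to partner ratios exact conditional odds ratio intervals, both at 95% and for counting error only. With 1 library per condition no p-value is given against the control library, and totals limit precision. A measured gene had a mean of at least 0.5 CPM. The 2 TF classes were compared with glmQLFTest, the quasi-likelihood test of edgeR, on genes kept by filterByExpr, and the script was tested on simulated data.

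Named DTs were the 4 largest rises and 2 largest falls per CLB_TF library (2 and 1 per control TF library, ranked with a prior count of 5), the 6 highest means, the 5 pairs whose ratio moved most among those with at least 20 DT counts, the 3 DTs highest relative to the partner, class calls, and DTs changed in at least 3 libraries. Beyond these, all DTs raised with NRF1 or E2F4, the partners raised with NRF1 or E2F4 and the DTs that fell with NKX2-8 are described from their values. 1 named DT is not reported here. The members and lists were chosen with earlier results of these data known. Alternatives changed scaling, prior count, minimum level, reference, the set of pairs, the filter and the test (DESeq2 1.42.0).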

Additional observations from a re-analysis of the deposited data

Results flagged for a closer look

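In 5 cases 1 library lay far from the other 3 of its TF class. Among the CLB_TF libraries the NRF1 library stood apart for RABGAP1L-DT (2.52 CPM), PRR15-DT (1.70 CPM) and PFKP-DT (1.26 CPM), and the EGR1 library for BAIAP2-DT (11.8 CPM, below the other 3). Among the control TF libraries the TFCP2 library stood apart for BTG1-DT (0.515 CPM). The gap to the nearest library over the range of the class was looked at in 62 groups of 4 libraries, of which chance flags about 1 in 20. Most of the DTs looked at were named for an extreme value in some library, so that rate is no yardstick for these groups. RABGAP1L-DT, PRR15-DT and PFKP-DT were named for their rise with NRF1, so for these 3 the NRF1 library standing apart restates how they were chosen. The cause was not tested.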

How the results depend on the processing

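No paired analysis was possible because each insert had 1 library and the labels give no replicate numbers. The minimum level moved the counts most. With 0.5 CPM the changed DTs numbered 54 for NRF1, 24 for E2F4, 22 for EGR1, 20 for ZBTB7A, and 11, 19, 9 and 25 for HOXA11, RORA, TFCP2 and NKX2-8. In the same order the share of DTs was 20.1%, 9.92%, 9.09%, 8.58%, 4.82%, 7.98%, 3.83% and 10.6%, and that of all genes 12.4%, 5.71%, 5.41%, 4.43%, 3.05%, 2.52%, 2.19% and 6.35%. With 5 CPM they numbered 2 for NRF1, 1 each for E2F4, EGR1 and ZBTB7A and 0 for the control TFs, beside 2.65% of all genes for NRF1, 2.55% for E2F4 and at most 0.765% for the rest. A prior count of 5 gave 5 for E2F4, 3 for EGR1, 2 for ZBTB7A, 1 for HOXA11 and 2 for RORA. In this order the share of DTs was 3.05%, 1.89%, 1.25%, 0.633% and 1.25%, and that of all genes 3.43%, 2.17%, 1.80%, 0.934% and 0.550%. A prior count of 0.5 gave 10 for ZBTB7A (6.25%, beside 2.63% of all genes) and 4 for HOXA11 (2.53%, beside 1.80%). With control TF libraries (their mean) as reference, 2 changed for EGR1, 2 for ZBTB7A, 0 for HOXA11 and 3 for RORA. The DT shares were 1.31%, 1.30%, 0% and 1.92%, beside 1.79%, 1.38%, 0.595% and 0.598% of all genes. Starts within 1000 bp left 3 for EGR1 (2.07%) and 1 for TFCP2 (0.685%). Pairs with no exon overlap left 2 for EGR1 (1.68%), 1 for HOXA11 (0.840%) and 3 for RORA (2.52%). Of all genes 2.78% changed for EGR1, 0.676% for TFCP2, 1.51% for HOXA11 and 0.915% for RORA. Library totals in place of TMM raised the median log2FC of the NRF1 library by 0.149 and left the DT counts within 1.5 times.

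Changed partners numbered 0 for EGR1 and TFCP2 and 1 for NKX2-8 at 5 CPM, 2 for HOXA11 and 1 for RORA at 0.5 CPM, and 0 for TFCP2 with a prior count of 5 or the control TF reference. Of all genes 0.591%, 0.0266% and 0.765% changed for EGR1, TFCP2 and NKX2-8 at 5 CPM, and 3.05% and 2.52% for HOXA11 and RORA at 0.5 CPM. For TFCP2 the share of all genes was 0.356% with a prior count of 5 and 0.667% with the control TF reference. Pairs whose ratio moved numbered 4 for E2F4, 3 for ZBTB7A, 1 for HOXA11 and 5 for RORA against summed control TF counts. Without exon overlap they numbered 4 for E2F4, 1 for EGR1, 3 for ZBTB7A, 1 for HOXA11 and 4 for RORA. The share of tested pairs is not given for these settings, so the lower numbers cannot be read as lower shares. Between the classes, DESeq2 called 2 DTs and 6 partners (1.02% and 1.13%, beside 0.946% of all genes) and no filter gave 5 and 21 (0.931% and 3.70%, beside 2.26%). Leaving out each TF library gave 0 to 1 DTs (1 without EGR1) and 0 to 2 partners (2 without EGR1, 0 without each control TF library in turn). Without EGR1 these were 0.490% of DTs and 0.375% of partners, beside 0.393% of all genes. Without each control TF library 0 of all genes were called.

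Of 37 changes of named DTs, 37 stayed past the threshold with DESeq2 size factors, 35 with library totals, 25 with a prior count of 5, 4 at 5 CPM and 13 against the mean of the control TF libraries. With that reference the sign turned for NUDT19-DT with NRF1 (-0.47) and E2F4 (-0.16) and for EIF5-DT with RORA (0.056). Apart from the effect of fewer genes or pairs tested, the causes were not tested. A median DT level of 1.58 CPM limits what a library can show for most DTs.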
